A study of Mus musculus with 8 samples.

Results

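The mitochondrial respiratory chain was followed through 81 of its nuclear genes among 22180 genes measured in mouse glomeruli. Members were taken by symbol: all genes starting with Nduf, Uqcr, Atp5, Cox4, Cox5, Cox6, Cox7 or Cox8, plus Sdha, Sdhb, Sdhc, Sdhd and Cyc1, without the Ndufaf assembly factors and without symbols ending in -ps. They comprise 34 genes of complex I, 4 of complex II, 9 of complex III, 17 of complex IV and 17 of complex V. The complex was assigned from the symbol alone, so Ndufa4 and Ndufa4l2 count with complex I by their letters only. Uqcrh-ps1 fits these letters although RefSeq lists it as a pseudogene, so it is kept and named where it moves a range. A further 8 symbols, among them Cox6c, Ndufb2 and Uqcr10, lie only on probe sets shared with other genes and were not analysed. The subunits that mitochondrial DNA encodes carry other symbols and are not covered. Of the members, 72 had a mean over the arrays above the median gene mean of 4.92 on the log2 scale, and 9 did not.

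The samples are 8 arrays of total RNA from glomeruli, the filtering units of the kidney, in mice aged 13 weeks. All groups received doxycycline for 3 weeks starting at 8 weeks of age. The 2 control arrays come from mice whose genotype is given only as control, and the labels do not say whether these mice were given vehicle. The 3 Tln1 vehicle and the 3 Tln1 VPA arrays come from Tln1 Pod-rtTA TetO-Cre mice, which received vehicle or valproic acid for 2 weeks after the doxycycline. By the line's name, doxycycline switches on Cre in podocytes, the epithelial cells of the filtration barrier, and Cre removes Tln1, whose product talin 1 links integrins to actin. Valproic acid (VPA) inhibits histone deacetylases. Nothing in the labels says whether each array is a separate animal, so each p-value below reflects only the spread between these arrays, which may be technical.

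The respiratory chain sits in the inner mitochondrial membrane. Complexes I and II take electrons from NADH and succinate, complex III passes them to cytochrome c, and complex IV hands them to oxygen, while complexes I, III and IV pump protons that drive ATP synthesis by complex V. In the kidney, proximal tubule cells are packed with mitochondria because they reclaim most of the filtered solutes, and podocytes hold fewer. Tubule fragments carried along with isolated glomeruli can therefore add subunit RNA, and in a bulk sample fewer cells of a type and less RNA per cell cannot be told apart.

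The 8 arrays separate into 2 sets that cut across the groups. Control 2 and the arrays numbered 3 of both Tln1 groups form the second set (3 arrays), and all the others form the first (5 arrays). Pairs of arrays correlated at 0.966 to 0.979 across genes when they came from different sets, and at 0.990 or more when they came from the same set. The sets were found from the arrays' own values and the labels do not name them, so they are not called a batch here. Tln1 itself read 8.97 and 8.64 (control), 8.95, 8.95 and 8.60 (Tln1 vehicle) and 8.76, 8.88 and 8.59 (Tln1 VPA). These groups overlap, and whether its probe set lies in the deleted stretch is not known, so the value checks no label. Podocyte markers were present on every array, with Nphs1 (nephrin) between 7.21 and 9.76 and Podxl (podocalyxin) between 9.31 and 11.13. Proximal tubule markers were present as well, with Slc34a1, a phosphate transporter, between 12.54 and 13.34 and Lrp2 (megalin) between 11.42 and 12.46.

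The level of the subunits followed the array set more than the group. The mean log2 level over the 81 members was 8.41 and 7.91 for the controls, 8.23, 8.30 and 7.80 for Tln1 vehicle, and 8.36, 8.31 and 7.84 for Tln1 VPA, in the order of the replicate numbers as in all lists of values below. Every second-set array thus lay below every first-set array, and the 3 groups overlapped, at 8.16 ± 0.35 (SD, n = 2), 8.11 ± 0.27 (SD, n = 3) and 8.17 ± 0.29 (SD, n = 3). All 5 complexes showed this order of the sets, as the plot of complex means shows. First-set arrays averaged 8.32 to 8.47 over complex I and second-set arrays 7.77 to 7.93, and over complex II the ranges were 10.05 to 10.16 and 9.55 to 9.75. Complex III, with 7.91 to 8.21 against 7.70 to 7.80, had the narrowest gap between the sets. The corresponding ranges were 7.28 to 7.49 and 6.97 to 7.02 for complex IV, and 8.73 to 8.88 and 8.32 to 8.40 for complex V.

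**Figure D1:**
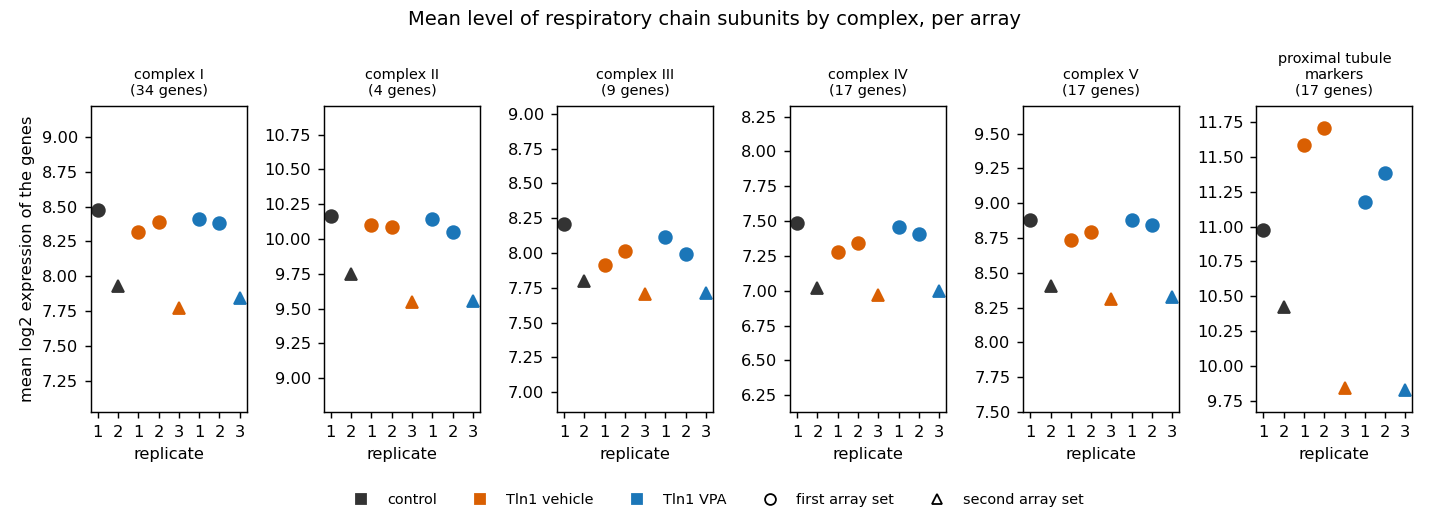
Mean log2 expression of the genes of complexes I to V and of 17 proximal tubule markers on each of the 8 arrays (x axis, replicates of control, Tln1 vehicle and Tln1 VPA; every panel spans the same number of log2 units). Circles mark the first and triangles the second array set. In each panel the second-set arrays lie lowest, and for complex I they span 7.77 to 7.93 against 8.32 to 8.47 in the first set.

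The first comparison, Tln1 vehicle against control, asks how subunit RNA differs in glomeruli after the podocyte change. No member passed the test over all arrays: with limma's test on the log2 values, 0 of 81 members and 0.0% of all genes had an adjusted p below 0.05. At an unadjusted p below 0.05 there was 1 member, Uqcr11, while 1.45% of all genes reached it. Of the members, 31 were higher and 50 lower in Tln1 vehicle, whereas 55.6% of all genes were higher and 44.4% lower. The median log2 difference was -0.05 over the members and 0.02 over all genes, and by complex it was -0.04 for I, -0.06 for II, -0.13 for III, -0.06 for IV and 0.01 for V.

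Uqcr11, a small accessory subunit of complex III, read 7.04 and 6.99 (control), 6.48, 6.68 and 6.82 (Tln1 vehicle) and 6.83, 6.79 and 6.77 (Tln1 VPA). All 6 Tln1 arrays lay below both controls, and the second-set arrays of Uqcr11 did not all sit below the first set. Its difference between Tln1 vehicle and control was -0.36 (SE 0.13), with an adjusted p of 1.00 over all genes in limma. The member of complex V with the smallest p was Atp5k, which encodes subunit e of the ATP synthase membrane part. It read 8.77 and 8.66 (control), 8.22, 8.29 and 8.66 (Tln1 vehicle) and 8.66, 8.72 and 8.56 (Tln1 VPA). Tln1 vehicle 1 and 2 were low while Tln1 vehicle 3 equalled control 2 to 2 decimals, and the difference of -0.33 (SE 0.16) had an adjusted p of 1.00 in limma. Ndufa3, an accessory subunit of complex I, read 10.30 and 10.02 (control), 9.82, 10.08 and 9.76 (Tln1 vehicle) and 10.00, 10.12 and 9.78 (Tln1 VPA). Tln1 vehicle 2 stood between the controls, so the groups overlap, and the difference was -0.28 (SE 0.17, adjusted p = 1.00 in limma).

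The promoters of these 3 genes are shown because each carries letters of a factor known to bind promoters of respiratory genes. The sequences are RefSeq's for GRCm38.p6, from 100 bases before the annotated start to the 30 bases from it, 5′ to 3′ on the gene's strand, at chr10:80406792-80406921 (minus strand) for Uqcr11, chr5:108434370-108434499 (minus strand) for Atp5k and chr7:3617273-3617402 (plus strand) for Ndufa3. Capitals mark the motifs searched: NRF1 (GCATGCGC), the ETS core that GABP binds (CCGGAAG) and YY1 (AAGATGGC), on either strand.
Uqcr11: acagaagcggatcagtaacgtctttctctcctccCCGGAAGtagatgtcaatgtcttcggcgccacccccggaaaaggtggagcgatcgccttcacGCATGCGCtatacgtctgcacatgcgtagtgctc
Atp5k: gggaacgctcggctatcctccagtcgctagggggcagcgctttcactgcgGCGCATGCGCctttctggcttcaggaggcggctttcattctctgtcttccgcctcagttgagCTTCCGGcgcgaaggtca
Ndufa3: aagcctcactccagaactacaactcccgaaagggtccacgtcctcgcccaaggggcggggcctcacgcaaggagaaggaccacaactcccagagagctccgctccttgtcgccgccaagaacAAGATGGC
In Uqcr11 the ETS letters run from base -66 to -60 and the NRF1 letters span the start, from -4 to 3. In Atp5k NRF1 matches on both strands, the 2 matches overlap to form 1 run, and the ETS letters lie on the opposite strand just after the start. The capitals in Ndufa3 are the YY1 letters, from base 22 to 29.

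Over the members, 65 of 81 had at least 1 promoter in the RefSeq table, giving 70 windows that reach from 250 bases before to 50 after the start. The NRF1 letters stood in 10 of the 70 windows (14.3%) and in 2.71% of all 32851 windows in the table. ETS letters stood in 17 (24.3%, against 8.86%) and YY1 letters in 9 (12.9%, against 2.75%). At least 1 of the 3 motifs was in 30 windows (42.9%, against 13.3% of all). By complex, the YY1 matches lay in 6 of 32 windows of complex I and 3 of 18 of complex V. None lay in the windows of complexes II, III and IV, which number only 3, 4 and 13. These shares describe letters in fixed windows and were not tested. A window without a match says nothing about the factor.

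Because the arrays separate by set, each difference was also taken within the sets, where each group has 1 array in the second set and the controls have 1 array in the first. Within both sets the subunits stood lower in Tln1 vehicle than in control, with median log2 differences of -0.13 (first set) and -0.14 (second set), against -0.01 and 0.00 over all genes. In 44 of the 81 members (54.3%) every Tln1 vehicle array lay below the control of its own set, as in 16.3% of all genes and 18.8% of genes above the median level. The opposite order held for 0 members and 14.2% of all genes. Over all arrays, without regard to the sets, 4 members (Uqcr11, Uqcrh, Atp5k and Ndufs3) had every Tln1 vehicle array below both controls, against 3.59% of all genes. The 44 comprise 21 genes of complex I, 3 of II, 4 of III, 9 of IV and 7 of V.

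In the limma fit that holds the array set as a block, 70 members were lower and 11 higher in Tln1 vehicle than in control, beside 51.5% of all genes lower and 48.5% higher. No member was called (0.0% of all genes were called), and the smallest adjusted p of a member was 0.483. At an unadjusted p below 0.05, 16 members (19.8%) were lower, against 4.3% of all genes, and 0 members were higher, against 3.01%. The 16 comprised 8 genes of complex I, 4 of complex III, 1 of complex IV and 3 of complex V. Some of them are described below by complex, beside members outside the 16. Those of the 16 other than Uqcr11, Ndufa3, Ndufb7, Cox4i1 and Atp5o were singled out after their values were seen.

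In complex I, the 8 were Ndufa2, Ndufs8, Ndufb7, Ndufa11, Ndufa3, Ndufs7, Ndufa13 and Ndufa7. Ndufs7 and Ndufs8 carry the iron-sulfur clusters next to the site where ubiquinone is reduced, and the others are accessory subunits. Ndufa2 read 8.60 and 8.05 (control), 8.24, 8.33 and 7.78 (Tln1 vehicle) and 8.53, 8.45 and 7.93 (Tln1 VPA). Within each set its Tln1 vehicle values were the lowest and its control value the highest, although the 3 groups overlap over all arrays. Its difference between Tln1 vehicle and control with the set as a block was -0.30 (SE 0.07, adjusted p = 0.483 in limma), made of -0.31 (first set) and -0.27 (second set). Ndufs8 read 9.60 and 8.85 (control), 9.06, 9.23 and 8.63 (Tln1 vehicle) and 9.39, 9.37 and 8.77 (Tln1 VPA), the same order within each set. The same difference for Ndufs8 was -0.35 (SE 0.09, adjusted p = 0.483 in limma). Ndufb7 read 7.81 and 7.24 (control), 7.26, 7.31 and 7.09 (Tln1 vehicle) and 7.61, 7.70 and 7.10 (Tln1 VPA), so that Tln1 VPA 3 and Tln1 vehicle 3 were nearly equal. Ndufa11 depended on the probe set: over all arrays its difference was -0.29 from the probe set used here and -0.0017 from the mean of its probe sets.

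Other complex I genes did not share this order. For Ndufv3 the difference was 0.22 within the first and -0.38 within the second set. Ndufs1, an iron-sulfur subunit of the NADH-oxidising module, likewise differed by 0.16 and -0.20. Ndufab1, the mitochondrial acyl carrier protein, differed by -0.03 and 0.00. The complex I member with the smallest p among those higher over all arrays was Ndufb3, with values of 6.90 and 6.03 for control, 7.09, 7.22 and 5.96 for Tln1 vehicle and 7.08, 7.22 and 5.93 for Tln1 VPA. Its difference of 0.29 (SE 0.52, adjusted p = 1.00 in limma) was 0.25 within the first set and -0.08 within the second, so its direction depends on the set.

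Complex II, succinate dehydrogenase, also belongs to the citric acid cycle and has only 4 subunits. Its membrane anchors Sdhc and Sdhd and the iron-sulfur subunit Sdhb were lower in Tln1 vehicle than in control within both sets, with differences of -0.16 to -0.13 (first set) and -0.22 to -0.16 (second set). Sdhb read 9.31 and 8.86 (control), 9.16, 9.18 and 8.64 (Tln1 vehicle) and 9.31, 9.13 and 8.66 (Tln1 VPA). Sdha, the flavoprotein that oxidises succinate, read 11.35 and 11.33 (control), 11.51, 11.50 and 11.11 (Tln1 vehicle) and 11.43, 11.31 and 11.11 (Tln1 VPA). Its Tln1 vehicle arrays were thus above the control in the first set and below it in the second. Over all arrays the differences were 0.03 (SE 0.17) for Sdha and -0.09 (SE 0.26) for Sdhb, and both directions turned under some alternatives given with the other settings.

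In complex III, Uqcrh, the acidic hinge protein near cytochrome c1, read 8.50 and 8.06 (control), 8.01, 8.05 and 7.93 (Tln1 vehicle) and 8.25, 8.29 and 7.91 (Tln1 VPA). The 3 Tln1 vehicle arrays lay below both controls, with a difference of -0.29 (SE 0.18) over all arrays and -0.34 (SE 0.10) with the set as a block (adjusted p = 1.00 and 0.511 in limma). Cyc1, cytochrome c1 itself, differed by -0.26 (first set) and -0.19 (second set). The Rieske protein gene Uqcrfs1 differed by -0.02 and -0.29. Uqcrb, which helps bind ubiquinone, lay between 11.19 and 11.52 on all arrays and differed by 0.00 and 0.01. The pseudogene Uqcrh-ps1, at 2.34 to 3.41 among the lowest-reading members, spanned the widest range, with -0.83 and 0.68.

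In complex IV, the nuclear genes include isoform pairs with different tissue distributions. Cox4i1, the isoform of subunit 4 found in most tissues, read 9.86 and 9.51 (control), 9.43, 9.54 and 9.25 (Tln1 vehicle) and 9.92, 9.70 and 9.33 (Tln1 VPA). Within each set its Tln1 vehicle arrays were the lowest, and the difference from control was -0.28 (SE 0.20) over all arrays and -0.34 (SE 0.10) with the set as a block (adjusted p = 1.00 and 0.539 in limma). Cox4i2, the isoform linked to lung and low oxygen, differed by -0.16 (first set) and 0.32 (second set), at levels of 4.22 to 4.97. The isoforms Cox6a1 and Cox7a2, found in liver and most tissues, and Cox7a1, known from heart and muscle, were all lower in every Tln1 vehicle array than in the control of its set. The within-set differences were -0.13 and -0.13 for Cox6a1, -0.32 and -0.06 for Cox7a2, and -0.46 and -0.01 for Cox7a1. Cox6a2, the muscle isoform of subunit 6a, was 0.20 higher in the first set and equal in the second, with 5.98 and 4.89 (control) against 6.13, 6.24 and 4.89 (Tln1 vehicle). Cox7a2l, a factor for joining complexes III and IV, differed by -0.20 and -0.11, Cox6b1 by -0.44 and -0.02 and Cox8a by -0.25 and 0.00. Cox8b, a muscle gene, differed by 0.04 and -0.15 and the testis gene Cox8c by -0.03 and 0.06, both at levels below the median gene mean, and the testis gene Cox6b2 by -0.16 and -0.07.

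In complex V, Atp5o, which encodes the stalk protein OSCP, read 6.08 and 5.54 (control), 5.23, 5.64 and 5.19 (Tln1 vehicle) and 5.69, 5.47 and 5.25 (Tln1 VPA). Tln1 vehicle 2 exceeded control 2, so the groups overlap across the sets, while within each set every Tln1 array was below the control. The difference between Tln1 vehicle and control was -0.46 (SE 0.22) over all arrays and -0.52 (SE 0.14) with the set as a block (adjusted p = 1.00 and 0.503 in limma). Atp5d and Atp5e, the delta and epsilon subunits of the rotating central stalk, differed by -0.33 and -0.30 (Atp5d) and by -0.48 and -0.37 (Atp5e) within the first and second set. The catalytic core genes differed less than these: Atp5a1 by 0.00 and -0.17 and Atp5b by 0.02 and -0.10. Their second-set values lay on either side of the median of all members in that set, -0.14. Atp5j2, subunit f, was the gene with the smallest p among those higher over all arrays, with 3.99 and 4.29 (control) against 4.69, 4.17 and 4.29 (Tln1 vehicle), levels at the low end of the members. Atp5c1 and Atp5j hardly moved on any array, from 6.73 to 6.79 and from 6.15 to 6.25.

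**Figure D2:**
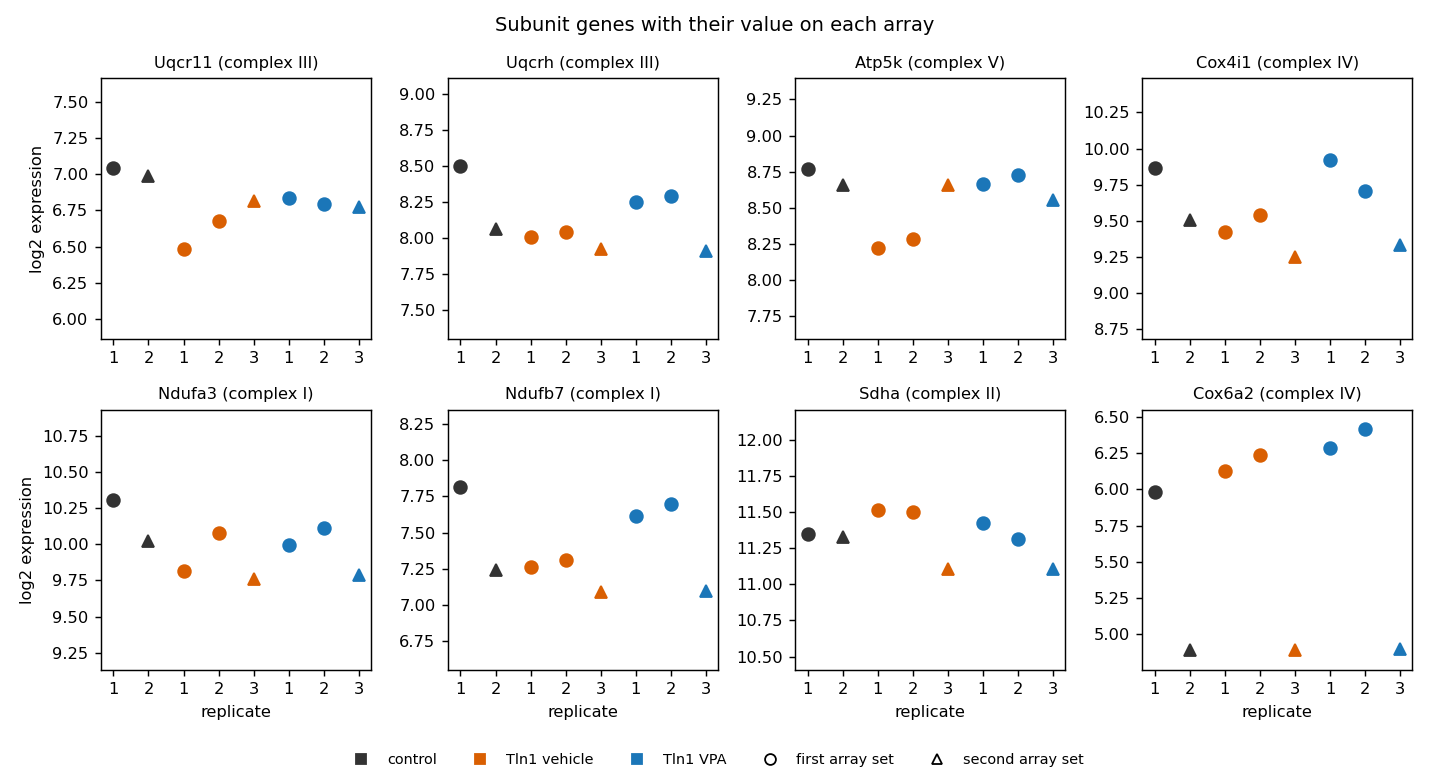
Log2 expression of 8 subunit genes on each array (x axis, replicates of control, Tln1 vehicle and Tln1 VPA; every panel spans the same number of log2 units; circles first, triangles second array set). Uqcr11 is below both controls in all 6 Tln1 arrays, Cox4i1 is lowest in Tln1 vehicle within each set, and Cox6a2 separates by set, with 4.89 to 4.90 in the second and 5.98 to 6.42 in the first.

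Other RNA moved with these within-set differences, and its part in them was not tested. In the first set, the mean of the 17 proximal tubule markers was 10.97 in control 1 and 11.59 and 11.71 in Tln1 vehicle 1 and 2, that is higher where the subunits were lower. The mean rests on few genes. Cyp2e1 read 9.54 in control 1, against 11.72 and 12.27 in Tln1 vehicle 1 and 2, and the largest difference, that of another marker, was 5.85. Over the 17 markers the median difference was -0.02, with 6 higher and 11 lower. In the second set the same mean was 10.43 in control 2 and 9.84 in Tln1 vehicle 3, and 16 of 17 markers were lower in Tln1 vehicle, with a median of -0.62. Endothelial markers had a median difference of -0.11 (first set) and 0.94 (second set), and podocyte markers 0.30 and -0.13. For markers of the thick limb, distal tubule and collecting duct these medians were -0.12 and 0.35. They were -0.205 and 0.74 for mesangial and smooth muscle markers, and -0.27 and 0.20 for macrophage markers. The Y-linked gene Eif2s3y read 3.80 in control 1 against 6.46 and 7.71 in Tln1 vehicle 1 and 2, but 2.83 in control 2 and 2.91 in Tln1 vehicle 3. The Y-linked signal therefore differed between the groups of the first set and was low in all groups of the second.

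The second comparison, Tln1 VPA against Tln1 vehicle, asks how valproic acid changes subunit RNA within the same line. It shares the Tln1 vehicle arrays with the first comparison, so values of opposite sign in both can come from those arrays alone. Over all arrays 62 members were higher and 18 lower in Tln1 VPA, and 1 did not differ, while 51.3% of all genes were higher and 48.5% lower. With limma 0 members and 0.0% of all genes were called, and 0 members, against 1.26% of all genes, had an unadjusted p below 0.05. The median difference was 0.06 over the members and 0.00 over all genes, and 0.05, 0.02, 0.11, 0.10 and 0.05 for complexes I to V.

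Within the sets, the median difference of the members was 0.06 in the first and 0.02 in the second. In 14 members (17.3%) every Tln1 VPA array lay above every Tln1 vehicle array of its set, as in 8.31% of all genes and 10.7% of genes above the median level. These were Ndufa2, Ndufa11, Ndufb7, Ndufs7 and Ndufs8 of complex I, Cox4i1, Cox6a1, Cox6a2, Cox7a1, Cox7a2 and Cox7a2l of complex IV, and Atp5d, Atp5g2 and Atp5g3 of complex V. The count was 29 without Tln1 VPA 2 and 26 without Tln1 vehicle 2, and the share of all genes then was 17.1% and 13.9%. Without Tln1 vehicle 1 it was 15 and without Tln1 VPA 1 it was 16, while the share of all genes rose to 14.9% and 13.4%. The opposite order held for Ndufa12 and Sdha, 2 members, against 6.7% of all genes. With the set as a block, 6 members (7.41%) were higher at an unadjusted p below 0.05, against 3.32% of all genes, and 0 were lower, against 2.11%.

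Those 6 were Ndufa2, Cox4i1, Ndufa11, Cox7a2l, Ndufb7 and Ndufs8, and each had an adjusted p of 0.889 in limma. Cox4i1 had the smallest p among the higher members of complex IV over all arrays, with 0.25 (SE 0.18) and, with the set as a block, 0.25 (SE 0.09). Its first-set difference was 0.33 and its second-set difference 0.08. Ndufa2 was 0.19 higher (SE 0.07 with the block), made of 0.20 (first set) and 0.15 (second set). Ndufb7 was 0.25 higher (SE 0.10 with the block), but the first set gave 0.37 and the second 0.01. For Ndufa11 the reading depends on the probe set: the one used gave 0.29, whereas the mean of its probe sets gave -0.15.

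Among the other members, Atp5k was 0.26 higher over all arrays (SE 0.14, adjusted p = 1.00 in limma), made of 0.44 (first set) and -0.10 (second set). Uqcr11 was 0.14 higher (SE 0.12), at 0.23 and -0.04. The difference was 0.07 for Sdhd and -0.09 for Sdha, neither larger than its standard error of 0.30 and 0.15. Atp5g1, 1 of 3 genes for the membrane ring of complex V, differed by -0.29 in the first set, where Tln1 VPA 1 read 5.08 and Tln1 VPA 2 5.55, and by 0.02 in the second. Its sister genes Atp5g2 and Atp5g3 were among the 14 above. Ndufa12 differed by -0.09, Cox4i2 by -0.10 and Uqcrh-ps1 by -0.17, all with adjusted p = 1.00 in limma.

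**Figure D3:**
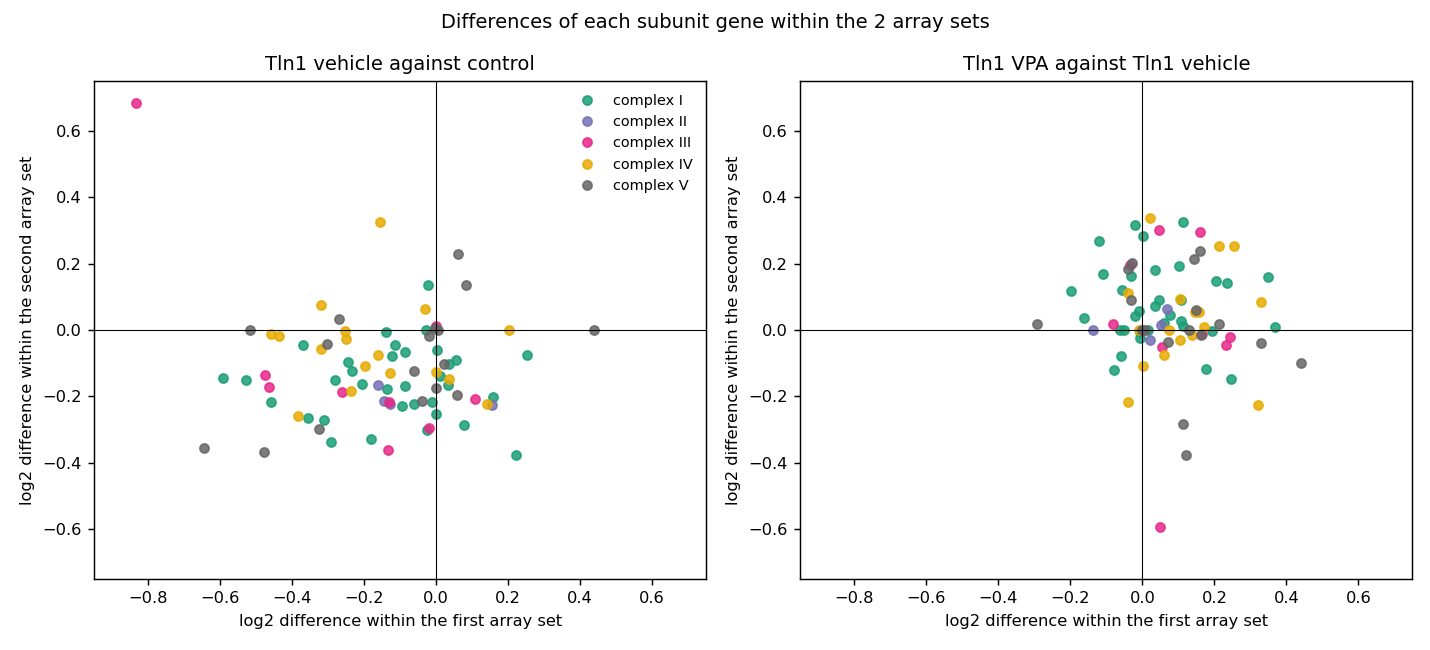
Log2 difference of each of the 81 subunit genes within the first (x axis) and within the second array set (y axis), for Tln1 vehicle against control (left) and Tln1 VPA against Tln1 vehicle (right), coloured by complex. On the left most points lie below 0 on both axes, with medians of -0.13 and -0.14, and on the right the points lie around 0 with medians of 0.06 and 0.02; the comparisons share the Tln1 vehicle arrays.

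Beside these values, the mean of the proximal tubule markers was 11.59 and 11.71 in Tln1 vehicle 1 and 2, 11.18 and 11.39 in Tln1 VPA 1 and 2, 9.84 in Tln1 vehicle 3 and 9.83 in Tln1 VPA 3. Over the 17 markers the median difference was -0.24 in the first set, with 15 lower in Tln1 VPA, and 0.12 in the second, with 6 lower and 11 higher. Macrophage markers were higher in Tln1 VPA in 10 of 10 genes over all arrays, with a median of 0.47. Glomerular endothelial markers were lower in 12 of 12 genes (median -0.36) and podocyte markers in 11 of 14 (median -0.23). The part of these cells in the subunit values was not tested.

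The third comparison, Tln1 VPA against control, shares its arrays with both others. Over all arrays 44 members were higher and 37 lower, with a median of 0.01, while 56.8% of all genes were higher and 43.2% lower, with a median of 0.02. Limma called 0 members and 0.0% of all genes, and 0 members, against 1.87% of all genes, had an unadjusted p below 0.05. Within the sets the median was -0.08 in the first and -0.04 in the second. In 30 members (37.0%) every Tln1 VPA array was below the control of its set, as in 16.1% of all genes, and in 1 member, Cox6a2, every one was above, as in 15.4% of all genes. With the set as a block 64 members were lower, beside 50.3% of all genes (49.7% were higher). An unadjusted p below 0.05 in limma was reached by 5 of them, 6.17% of the members, against 4.06% of all genes. These were Cyc1, Atp5o, Ndufa1, Ndufa13 and Ndufa3. Markers of other cells moved beside these values. In the same fit 14 of 17 proximal tubule markers were lower (median -0.33). By set, podocyte markers had medians of 0.13 (first) and -0.51 (second, 13 of 14 lower), and macrophage markers 0.03 and 0.92 (10 of 10 higher). Endothelial markers had medians of -0.45 (first, 11 of 12 lower) and 0.26 (second, 9 of 12 higher). The Y-linked Eif2s3y was lowest in control 1 among the first-set arrays. The part of these cells or of sex in the subunit values was not tested.

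Side by side, the block fit gave Atp5o -0.52 for Tln1 vehicle and -0.40 for Tln1 VPA against control, and Cyc1 -0.23 and -0.21. Both values of a gene are taken against the same control arrays, so their agreement can come from those arrays alone. For Ndufa13 the values were -0.25 and -0.25, and for Ndufa3 -0.32 and -0.24. By contrast Cox4i1 gave -0.34 and -0.09, Ndufa2 -0.30 and -0.11 and Ndufb7 -0.38 and -0.13. The difference between each pair is the Tln1 VPA against Tln1 vehicle value of that gene, and none passed the adjusted test. Over all arrays the members with the smallest p in the higher direction were Ndufb3 (0.28), Sdhd (0.01), Uqcrfs1 (0.26), Cox6a2 (0.43) and Atp5j2 (0.20), 1 for each complex. In the lower direction they were Ndufa3 (-0.20), Sdha (-0.06), Uqcr11 (-0.22), Cox7b2 (-0.07) and Atp5o (-0.34), and all 10 had an adjusted p of 1.00 in limma.

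The median gap between the array sets was wider in every complex than its median difference between groups. Since the sets were read from these values, the gap is a description without a test. Averaged over the 3 groups, the median member difference, second minus first set, was -0.51, against -0.14 over all genes. In 59 members all 3 second-set arrays lay below all 5 first-set arrays, as in 36.6% of all genes and 40.7% of genes above the median level, and in 4 members they lay above, as in 13.2% of all genes. The median gap was -0.55 for complex I, -0.54 for II, -0.30 for III, -0.47 for IV and -0.49 for V. It was alike in each group, with medians of -0.55 (control), -0.51 (Tln1 vehicle) and -0.56 (Tln1 VPA).

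Members of 1 complex differed widely in this gap. Atp5d had a gap of -1.50, with values of 9.89 and 8.35 for control, 9.50, 9.64 and 8.05 for Tln1 vehicle and 9.82, 9.64 and 8.29 for Tln1 VPA, whereas Atp5j, the coupling factor 6 subunit, had one of 0.08. The gap was -1.28 for Cox6a2 and 0.43 for Cox4i2. In complex III it ran from -1.14 (Uqcrfs1) to 0.26 (Uqcrh-ps1). The range in complex I was from -1.14 (Ndufs5) to 0.09 (Ndufa12), and in complex II from -0.69 (Sdhd) to -0.23 (Sdha). The members whose second-set arrays lay above were Cox4i2, Cox7b2, Atp5c1 and Atp5j.

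**Figure D4:**
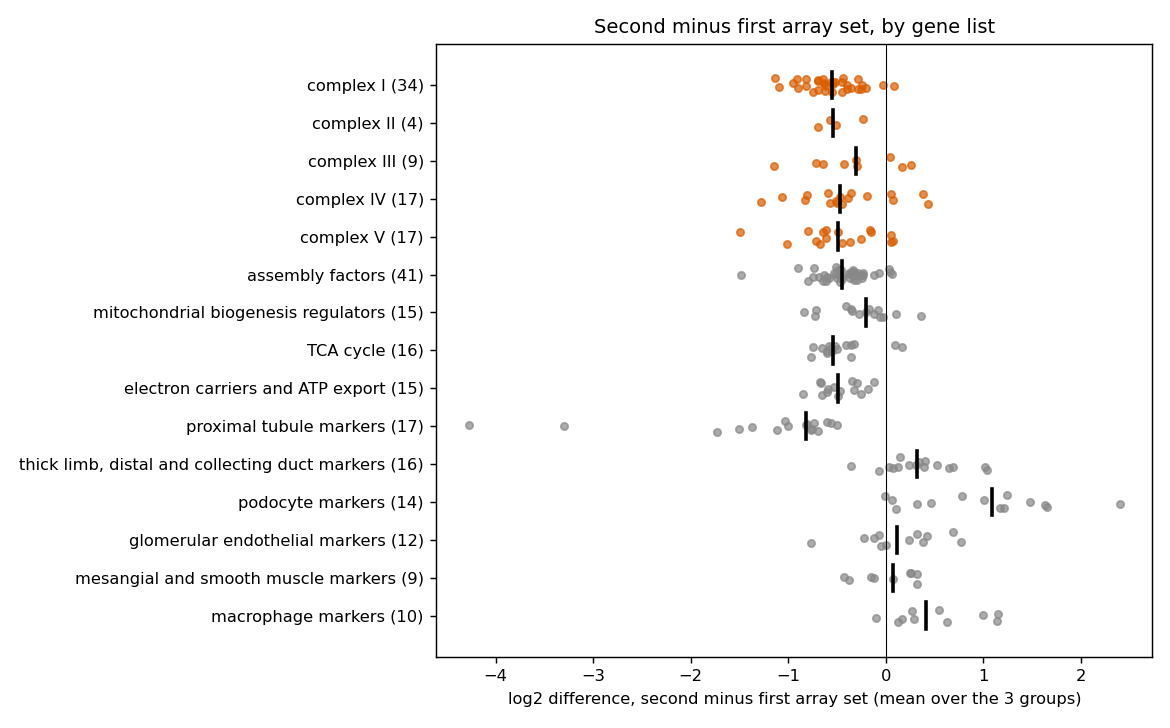
Log2 difference of the second from the first array set, averaged over the 3 groups, for each gene (points) of complexes I to V (orange), other mitochondrial lists and cell type marker lists (grey); black bars are medians and numbers in brackets count genes. The complexes have medians from -0.55 to -0.30, proximal tubule markers -0.82 and podocyte markers 1.09.

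Marker genes moved with the sets too. All 17 measured proximal tubule markers had a lower mean in the second set, with a median gap of -0.82 and list means of 10.97 to 11.71 in the first against 9.83 to 10.43 in the second set. Of 14 podocyte markers 13 were higher, with a median of 1.09 and list means of 7.80 to 8.30 against 8.70 to 9.24. Markers of the thick limb, distal tubule and collecting duct were higher in 14 of 16, with a median of 0.33. Eif2s3y was 3.80 to 7.71 in the first and 2.69 to 2.91 in the second set. The part of tubule content, podocyte content or sex in the subunit gap was not tested.

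Other genes of mitochondrial function were read from lists chosen for their role. In Tln1 vehicle against control, limma called 0 genes of the 4 lists (0.0% of all genes). At an unadjusted p below 0.05 there was 1, Uqcc2, an assembly factor of complex III, while 1.45% of all genes reached it. Uqcc2 read 5.64 and 5.82 (control), 5.35, 5.37 and 5.47 (Tln1 vehicle) and 5.59, 5.59 and 5.50 (Tln1 VPA), with a difference of -0.34 (SE 0.12, adjusted p = 1.00 in limma). All 3 Tln1 vehicle arrays were below both controls. Of the 41 assembly factors 21 were higher and 20 lower, of 16 citric acid cycle genes 10 and 6, and of 15 electron carrier and ATP export genes 13 and 2, while 55.6% of all genes were higher. With the set as a block, 33 of the assembly factors were lower (median -0.10), 11 of the citric acid cycle genes (median -0.07), 6 of the carrier and export genes (median 0.01) and 9 of the 15 regulators of biogenesis (median -0.03), beside 51.5% of all genes. The predominance of lower values in that fit was therefore not limited to the subunits. Cycs, cytochrome c, which carries electrons from complex III to IV, was 0.27 higher (SE 0.28) and Vdac2, a channel of the outer membrane, 0.24 higher (SE 0.20), both with adjusted p = 1.00 in limma.

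Regulators of mitochondrial biogenesis did not pass the test either. Of 15 measured regulators 7 were higher and 8 lower in Tln1 vehicle than in control. Ppargc1a, the coactivator PGC-1 alpha, read 9.85 and 10.01 (control), 9.53, 9.54 and 10.01 (Tln1 vehicle) and 9.58, 9.60 and 10.04 (Tln1 VPA). Its gap between the sets, 0.36, was the highest of the 15 and opposite to the median of the subunits. Its difference of -0.24 (SE 0.21) came from the first set, since control 2 and Tln1 vehicle 3 read alike. Esrra, a nuclear receptor that acts with it, differed by -0.25 (SE 0.21), Nrf1 by -0.06 (SE 0.17), Gabpa, a subunit of GABP, by 0.07 (SE 0.17), and Tfam, which packs and transcribes mitochondrial DNA, by -0.08 (SE 0.37). First-set values of Tfam were 6.57 to 6.68 and second-set values 5.65 to 6.26, the order of the subunits.

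In Tln1 VPA against Tln1 vehicle, limma called 0 genes of the 4 lists (0.0% of all genes), and 0 had an unadjusted p below 0.05, against 1.26% of all genes. The counts of higher and lower genes were 27 and 14 for assembly factors and 10 and 5 for regulators. They were 10 and 6 for the citric acid cycle and 11 and 4 for carriers and export, while 51.3% of all genes were higher. Tfb1m, which modifies mitochondrial ribosomal RNA, had the smallest p, at -0.28 (SE 0.13, adjusted p = 1.00 in limma). It read 7.28, 7.39 and 7.17 in Tln1 vehicle and 7.22, 6.97 and 6.81 in Tln1 VPA arrays, so that Tln1 VPA 1 lay within the Tln1 vehicle range. In the second set all 16 citric acid cycle genes were higher in Tln1 VPA 3 than in Tln1 vehicle 3, with a median of 0.12, while in the first set 12 of the 16 were lower, with a median of -0.05. The second set has 1 array per group, so this has no replicate.

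Among all lists, the gap between the array sets had a median of -0.45 for assembly factors, -0.54 for the citric acid cycle, -0.49 for carriers and export and -0.21 for regulators, beside -0.51 for the subunits and -0.14 over all genes.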

How the data were processed

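Total RNA of isolated glomeruli was hybridised to Affymetrix arrays, 1 per sample. The authors deposited log2 expression values. The submitters' processing notes name RMA and limma without versions, and the genome build is not given in the sources used here. Values ran from 1.49 to 13.9 over 41345 probe sets. Of these, 23521 had 1 symbol in the platform annotation, 1814 several and 16010 none. Per gene, the single-symbol probe set with the highest mean was kept; 9 members had several, and using their mean turned 3 of 27 directions (Ndufa11 in Tln1 VPA against Tln1 vehicle, Ndufa12 in that comparison and in Tln1 VPA against control).

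Groups were compared with limma 3.58.1 in R 4.3.3 (lmFit and eBayes, group only, all 8 arrays, two-sided, Benjamini-Hochberg over 22180 genes, called below 0.05). The fit was tried on simulated data without array sets, which does not show how it performs with the sets found here. Other steps ran in Python 3.11.15. The number of arrays limits the precision. Identical values on 2 or more arrays, which rank-based steps can leave, occurred in 30 members (37.0%) and 46.0% of all genes. Members, lists and alternatives were chosen with earlier results of these data known. Named members are, per comparison and complex, those with the smallest p in each direction, the complex II genes, isoform pairs, those with the extreme set gaps, 6 regulators and carriers, and per list the smallest p. Between Tln1 vehicle and Tln1 VPA, arrays of equal number correlated in their deviations from the group means (r = 0.570, 0.609 and 0.787). Other first-set pairs gave 0.510 and 0.515. These deviations carry the gap between the sets, and the arrays numbered 3 are the only second-set arrays of both groups. The values therefore cannot show whether arrays are paired, and the main fit pairs none. Control 1 and 2 correlated with the Tln1 vehicle arrays of equal number at 0.609 and -0.591. Control 2 and Tln1 vehicle 2 lie in different sets.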

Additional observations from a re-analysis of the deposited data

How the results depend on the processing

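With each of 17 other settings, some of which leave 1 control array, limma called 0 members in each comparison. In the order of the 3 comparisons, 16, 6 and 5 members (19.8%, 7.41% and 6.17%) had an unadjusted p below 0.05 with the set as a block. The shares of all genes were 7.3%, 5.43% and 8.12%. With the replicate block the members were 3, 0 and 7, against 8.25%, 3.06% and 9.82% of all genes. The count of 14 members higher in every Tln1 VPA array within both sets went from 15 to 29 when single first-set arrays were left out. It was 29 without Tln1 VPA 2 and 26 without Tln1 vehicle 2 (17.1% and 13.9% of all genes). Without Tln1 VPA 1 and Tln1 vehicle 1 it was 16 and 15 (13.4% and 14.9% of all genes). With arrays centred on the median it was 13 (7.83% of all genes), and after quantile normalisation 16 (9.26%). The count of 44 members lower in every Tln1 vehicle array than in control was 41 centred (22.3% of all genes) and 34 after quantile normalisation (18.8%). Without Tln1 vehicle 1 and 2 it was 46 and 48 (21.7% and 21.8%). The count of 30 for Tln1 VPA against control was 44 centred (24.9%) and 25 after quantile normalisation (20.1%). Without Tln1 VPA 1 and 2 it was 43 and 31 (22.4% and 21.7%). These within-set counts and their settings were chosen with the data already known. The median of the members ranged from -0.32 (without control 2) to 0.21 (without control 1) for Tln1 vehicle against control, from -0.12 (without Tln1 vehicle 3) to 0.23 (without Tln1 VPA 3) for Tln1 VPA against Tln1 vehicle, and from -0.24 to 0.25 for Tln1 VPA against control, since leaving out 1 array changes the balance of the sets. With the replicate block, 0 members were called and the medians were 0.12, 0.06 and 0.18. The block called 4, 0 and 1 of all genes, against 0, 0 and 0, and changed no other call. It groups arrays by number, so control 2, of the second set, stands with Tln1 vehicle 2 and Tln1 VPA 2, of the first. Its differences from control therefore carry the gap between the sets. With the array set as a block the medians were -0.13, 0.06 and -0.06.

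Of 30 named gene values, 14 turned their direction under some setting. For Tln1 vehicle against control, Sdha gave -0.0019 centred, -0.0501 after quantile normalisation and -0.0087 with the set as a block, Sdhb 0.089 with the replicate block, and Uqcrb -0.0006 after quantile normalisation and -0.0003 in the first set alone. For Tln1 VPA against Tln1 vehicle, Ndufa12 gave 0.0189 as the mean of its probe sets and Uqcrh-ps1 0.0478 in the first set alone. For Tln1 VPA against control, Sdhd gave -0.0346 centred, -0.106 with the set as a block and -0.0606 in the first set alone, and Sdha 0.0516 with the replicate block and 0.0192 in the first set alone. With single arrays left out, Tln1 vehicle against control ranged from -0.15 to 0.72 for Ndufb3, -0.0376 to 0.17 for Sdha, -0.32 to 0.13 for Sdhb, -0.11 to 0.23 for Uqcrb and -0.23 to 0.86 for Cox6a2. The range was -0.17 to 0.31 for Sdhd, -0.35 to 0.16 for Uqcrh-ps1 and -0.26 to 0.12 for Cox4i2 in Tln1 VPA against Tln1 vehicle. In Tln1 VPA against control it was -0.16 to 0.71 for Ndufb3, -0.30 to 0.32 for Sdhd, -0.13 to 0.0289 for Sdha, -0.24 to 0.76 for Uqcrfs1 and -0.11 to 0.98 for Cox6a2. The cause was not tested.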
